A study of Mus musculus with 28 samples.

Results

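The genes described here are 9 brakes on the cell division cycle, *Cdkn1a*, *Cdkn1b*, *Cdkn1c*, *Cdkn2a*, *Cdkn2b*, *Cdkn2c*, *Cdkn2d*, *Btg2* and *Rprm*, chosen by name and matched by symbol to Ensembl gene identifiers. All 9 were among the 26790 genes tested of 44674 in the bulk table, and all 9 were among the 31053 features of the single-cell libraries. Ovaries of wild-type and *Chek2*-/- mice were collected 6 h after 0.5 Gy of irradiation (IR) from a Cesium-137 source or a sham treatment. *Chek2* encodes CHEK2, a kinase that passes the DNA break signal on to p53 and p63. Whole ovary pairs of 7- to 9-day-old females gave 24 bulk mRNA libraries, 6 in each of the 4 groups, and dissociated ovaries of 7-day-old females gave 4 single-cell libraries, 1 per condition. The comparisons asked how irradiation moved transcripts in each genotype and whether that depended on CHEK2. The wild-type strain was C57BL/6J and the mutant allele was Chek2tm1b(EUCOMM)Hmgu, carried in every cell of the animal, and the sources used here do not give the strain background of the mutant line. Each single-cell library pooled the ovaries of 4 females, so animals could not be told apart within it, and the labels tie no bulk library to a litter or to another library, so p-values measure the spread between these libraries.

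Cyclin-dependent kinases (CDKs) drive cells through division, and inhibitor proteins that bind them hold the cycle still. The CIP/KIP proteins p21 (*Cdkn1a*), p27 (*Cdkn1b*) and p57 (*Cdkn1c*) bind several cyclin-CDK complexes, whereas the INK4 proteins (*Cdkn2a* to *Cdkn2d*) bind the kinases that partner cyclin D. *Btg2*, an antiproliferative partner of the mRNA deadenylase complex, and *Rprm*, which encodes the G2 arrest protein reprimo, are, like *Cdkn1a*, classical targets of p53. In the ovary p27 is known for keeping primordial follicles at rest, and the oocytes themselves are arrested in meiosis.

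Bulk libraries held 17824920 to 32605519 estimated counts, and levels are given as CPM, counts scaled to a library of 1000000 with TMM-adjusted library sizes. *Chek2* itself was at 18.5 to 24.6 CPM in the 12 wild-type and 2.88 to 4.53 CPM in the 12 *Chek2*-/- libraries, which goes with the labels. The single-cell libraries gave 8697 to 9779 cells each after filters and doublet removal, with a median of 13908 to 17135 unique molecular identifiers (UMIs) per cell, and pairs of libraries shared 15 to 31 barcodes among these cells. Summed oocyte markers were at 1968 to 4329 CPM in the bulk libraries, so the ovarian label held. A few bulk libraries also carried blood cells, with neutrophil markers at up to 1114 CPM in irradiated wild-type and 1292 CPM in irradiated *Chek2*-/- ovaries against at most 21.5 CPM in non-irradiated ovaries, and erythroid markers at up to 10790 CPM.

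The sequence just before 2 of these genes is shown because *Cdkn1a* and *Btg2* were the members whose response to irradiation in bulk ovaries differed between the genotypes by the edgeR test. Coordinates and sequences are from RefSeq on GRCm38.p6, read 5′ to 3′ on the strand of the gene, and each run is the 250 bases before an annotated start. In *Cdkn1a* (chr17:29090729-29090978, plus strand) the capitals mark a match to the p53 response element. In *Btg2* (chr1:134079156-134079405, minus strand) they mark the cAMP response element TGACGTCA.
Cdkn1a: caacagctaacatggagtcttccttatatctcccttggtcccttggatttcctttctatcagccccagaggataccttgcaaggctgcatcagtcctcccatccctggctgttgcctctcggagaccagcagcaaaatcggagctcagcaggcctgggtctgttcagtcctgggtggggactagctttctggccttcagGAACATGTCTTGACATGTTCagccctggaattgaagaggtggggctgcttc
Btg2: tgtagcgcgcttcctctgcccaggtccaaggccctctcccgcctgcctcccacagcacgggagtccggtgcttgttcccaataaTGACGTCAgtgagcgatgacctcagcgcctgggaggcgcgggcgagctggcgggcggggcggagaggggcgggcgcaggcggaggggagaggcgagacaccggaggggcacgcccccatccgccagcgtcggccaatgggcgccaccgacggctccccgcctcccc
The *Cdkn1a* match was 20 bases long with 1 mismatch and no spacer. It lay 51 to 32 bases before the annotated start at the upstream end of the gene. Which of the annotated starts these ovaries used was not measured. The search took 2 half-sites of 10 letters on both strands with up to 2 mismatches and up to 13 letters between them, and 4.09% of the 32851 windows of 300 bases in the RefSeq table held such a match. The second annotated *Cdkn1a* start and the windows of the other members in the table held none, which says only that these letters are not there. The *Btg2* match to TGACGTCA lay 166 bases before the start, a second member, *Cdkn2b*, had 1 at 46 bases before its start, and 1.79% of all windows held one. *Cdkn1c* was not in the table. These are matches of letters, and binding was not measured.

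*Cdkn1a* (ENSMUSG00000023067, GRCm38 chr17:29090976-29100727, plus strand) encodes p21, the inhibitor that arrests cells after DNA damage. In wild-type ovaries it was at 22.0 (lowest), 25.2 (median) and 36.6 CPM (highest) without irradiation and at 75.5, 87.2 and 104 CPM with irradiation (6 libraries each). In *Chek2*-/- ovaries the lowest, median and highest were 31.8, 39.7 and 43.0 CPM without and 37.3, 48.7 and 59.0 CPM with irradiation. The irradiated wild-type libraries stood above all 18 others, and the *Chek2*-/- groups overlapped each other. In the wild type *Cdkn1a* rose by 1.67 on the log2 scale (SE 0.13, 95% interval 1.403 to 1.93, a fold of 3.18, edgeR adjusted p = 2.48e-09). The *Chek2*-/- change was 0.31 (SE 0.12, 0.05 to 0.57, edgeR adjusted p = 0.999, unadjusted p = 0.0199), with 4 of 6 irradiated libraries above every non-irradiated one. The difference between the genotypes was 1.36 (SE 0.18, 0.99 to 1.73, edgeR adjusted p = 5.36e-05). In bulk RNA, fewer cells of a type and less RNA per cell cannot be told apart. Within replicates 1 to 4, and with a term for replicates 5 and 6, both calls stood. With replicates 5 and 6 alone, 2 libraries per group, the wild-type change was 1.48 (edgeR adjusted p = 0.107). An annotated gene on the opposite strand, AC167363.2, overlaps *Cdkn1a*, as Gm44732 does *Cdkn1c*, and the sources used here do not say whether the counting used strand.

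*Btg2* (ENSMUSG00000020423, GRCm38 chr1:134075170-134079120, minus strand) was at 26.0, 30.8 and 35.5 CPM (lowest, median and highest) in non-irradiated and 51.3, 61.9 and 77.1 CPM in irradiated wild-type ovaries. Its *Chek2*-/- values were 32.4, 44.4 and 57.7 CPM without and 34.7, 38.9 and 59.96 CPM with irradiation. The wild-type groups did not overlap, and the *Chek2*-/- groups covered nearly the same range. *Btg2* rose in the wild type by 1.02 (SE 0.14, 0.73 to 1.32, edgeR adjusted p = 4.01e-05), against −0.11 in *Chek2*-/- ovaries (SE 0.14, −0.40 to 0.19, edgeR adjusted p = 1). The genotypes differed by 1.13 (SE 0.20, edgeR adjusted p = 0.00224).

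*Rprm* (ENSMUSG00000075334, GRCm38 chr2:54084093-54085552, minus strand) was the least abundant of the 9. It was at 0.610, 0.684 and 1.13 CPM (lowest, median and highest) in non-irradiated and 1.16, 1.58 and 2.03 CPM in irradiated wild-type ovaries. Its *Chek2*-/- values were 0.650, 0.997 and 1.19 CPM without and 0.790, 1.04 and 1.52 CPM with irradiation. The wild-type groups touched without crossing, the upper non-irradiated values being those of replicates 5 and 6. *Rprm* rose in the wild type by 1.00 (SE 0.20, 0.59 to 1.42, edgeR adjusted p = 0.00325). The change in *Chek2*-/- ovaries was 0.11 (−0.30 to 0.52, edgeR adjusted p = 1), and the genotypes differed by 0.90 (SE 0.28, 0.32 to 1.48) with an edgeR adjusted p of 0.167, so a dependence on genotype was not shown for *Rprm*.

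**Figure D1:**
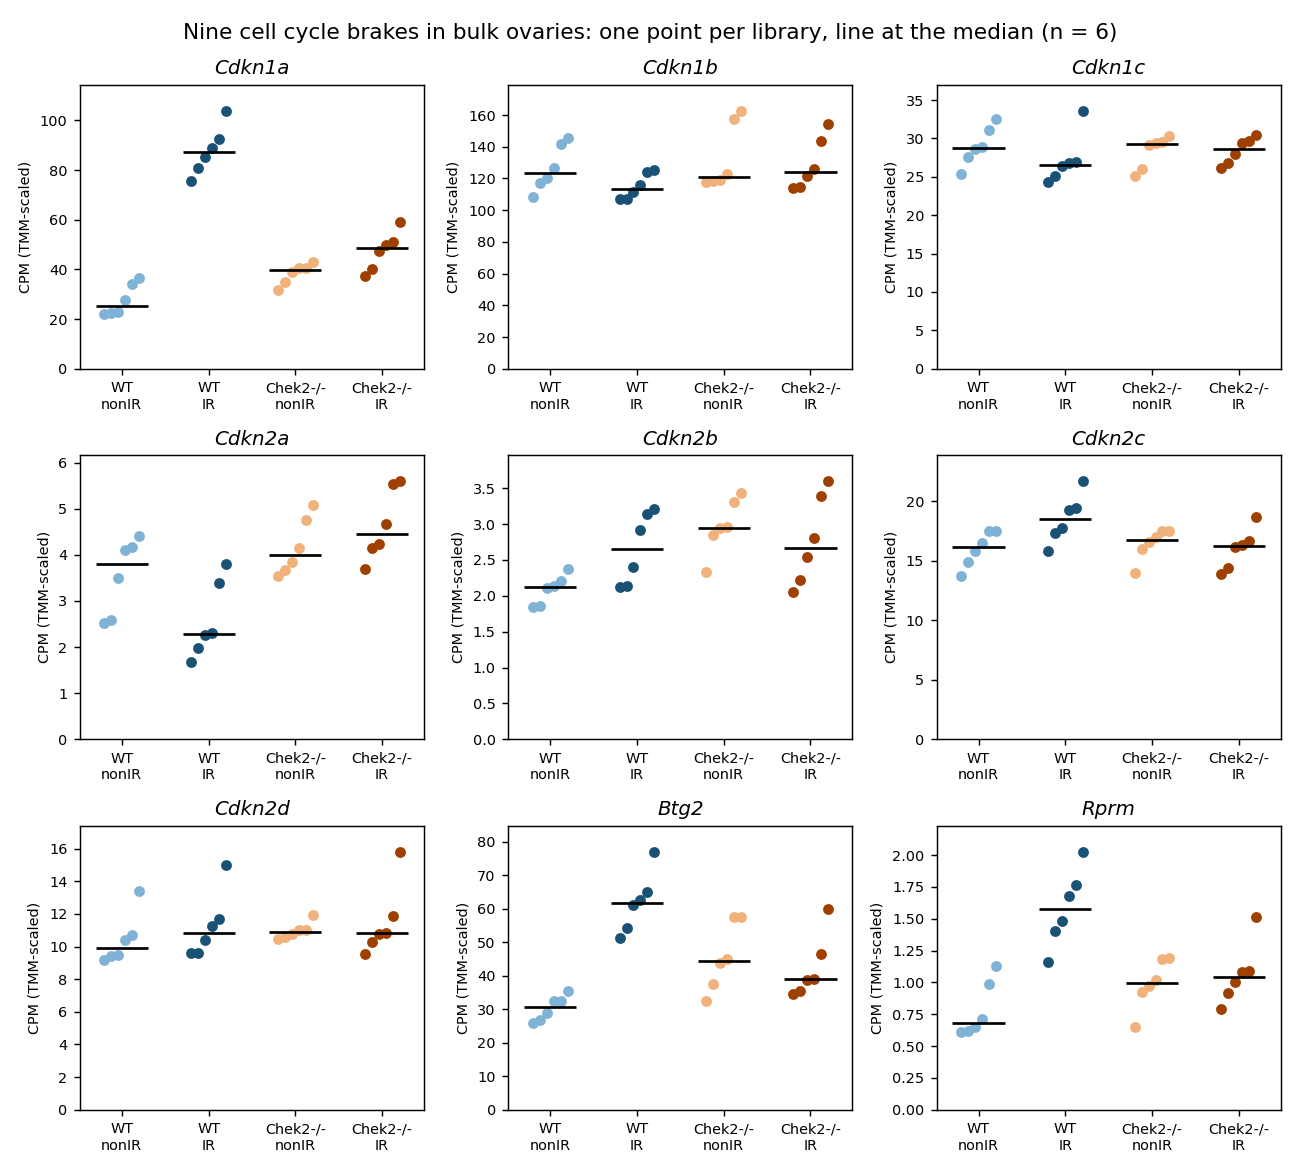
Level of each of the 9 genes in every bulk library, in CPM on a linear axis from 0, by group (6 points per group), with the group median as a line. The irradiated wild-type libraries lie above the non-irradiated ones without overlap for *Cdkn1a*, *Btg2* and *Rprm*, while the other 6 genes overlap between the groups.

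The plot of CPM by library shows that the other CIP/KIP genes stayed in a narrow range. *Cdkn1b* (GRCm38 chr6:134920401-134925513, plus strand), which encodes p27, had group medians of 123, 114, 121 and 124 CPM (non-irradiated and irradiated wild-type, then non-irradiated and irradiated *Chek2*-/-) within a range of 107 to 163 CPM. Its 2 highest values in every group were those of replicates 5 and 6. Its wild-type change was −0.13 (SE 0.09, −0.33 to 0.06, edgeR adjusted p = 0.691), and in *Chek2*-/- ovaries it was −0.04 (−0.24 to 0.15, edgeR adjusted p = 1). *Cdkn1c* (GRCm38 chr7:143458339-143461050, minus strand), an imprinted gene that encodes p57, had medians of 28.8, 26.6, 29.3 and 28.7 CPM within 24.3 to 33.6 CPM. Its wild-type change was −0.10 (SE 0.07, −0.25 to 0.05, edgeR adjusted p = 0.728). For both genes the intervals leave out a change of 2-fold in either genotype.

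The INK4 genes were lower in level and none passed the test after irradiation. *Cdkn2a* (GRCm38 chr4:89274471-89294653, minus strand) encodes p16INK4a and, in another reading frame, p19ARF, which a count per gene does not separate. It was at 2.51, 3.81 and 4.41 CPM (lowest, median and highest) in non-irradiated and 1.68, 2.29 and 3.81 CPM in irradiated wild-type ovaries, and at 3.53 to 5.60 CPM over the 12 *Chek2*-/- libraries. The wild-type groups overlapped, with 4 of 6 irradiated libraries below every non-irradiated one. The wild-type change was −0.47 (SE 0.19, −0.86 to −0.08, edgeR adjusted p = 0.277), and the genotype contrast of the changes was −0.62 (SE 0.26, edgeR adjusted p = 0.435).

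Its neighbour *Cdkn2b* (GRCm38 chr4:89306299-89311039, minus strand), which encodes p15, had medians of 2.12 and 2.66 CPM in wild-type and 2.95 and 2.67 CPM in *Chek2*-/- ovaries, without and with irradiation. The wild-type change was 0.35 (SE 0.15, 0.03 to 0.66, edgeR adjusted p = 0.352). *Cdkn2c* (GRCm38 chr4:109660876-109667189, minus strand), which encodes p18, had medians of 16.1 and 18.5 CPM in wild-type and 16.8 and 16.2 CPM in *Chek2*-/- ovaries, with a wild-type change of 0.22 (SE 0.08, 0.04 to 0.39, edgeR adjusted p = 0.258). *Cdkn2d* (GRCm38 chr9:21288410-21291407, minus strand), which encodes p19INK4d, had medians of 9.94, 10.8, 10.9 and 10.8 CPM and a wild-type change of 0.11 (−0.14 to 0.36, edgeR adjusted p = 0.852). The intervals of the *Cdkn2a*, *Cdkn2b* and *Cdkn2c* changes left out 0, and none of the 4 INK4 genes passed after adjustment over all genes.

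With the threshold at an adjusted p of 0.05 and a 2-fold change, 3 of the 9 genes were called in wild-type ovaries, all higher, where 1.08% of all genes tested were called in either direction and 0.859% were called higher. The groups did not overlap for the same 3 genes, where this held for 1.68% of all genes in the upward direction. After irradiation of *Chek2*-/- ovaries 0 of 9 were called by edgeR, and 1 gene of all tested (0.00373%) was. *Cdkn1a* alone of the 9 had an unadjusted p under 0.05 there, where 4.4% of all genes had one, and DESeq2 called 9 genes of all tested and none of the members. For the difference between the genotypes 2 of 9 were called, *Cdkn1a* and *Btg2*, against 0.623% of all genes. *Btg2* and *Rprm* lay at the 2-fold limit, and when each wild-type library was left out in turn 1 or both of them fell below it in 8 of 12 fits. Without non-irradiated replicate 3 or 4 both did, which left 1 of 9 called, and without non-irradiated replicate 1 or 2 or irradiated replicate 1, 3, 4 or 5 the count was 2. The 9 genes were chosen by name with results of these data known, so the counts are a description. Among cell type markers, 1 of 10 oocyte markers was lower and 1 of 8 pericyte markers higher in irradiated wild-type ovaries (edgeR adjusted p at most 0.05). Of all genes 2.41% passed there in either direction.

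**Figure D2:**
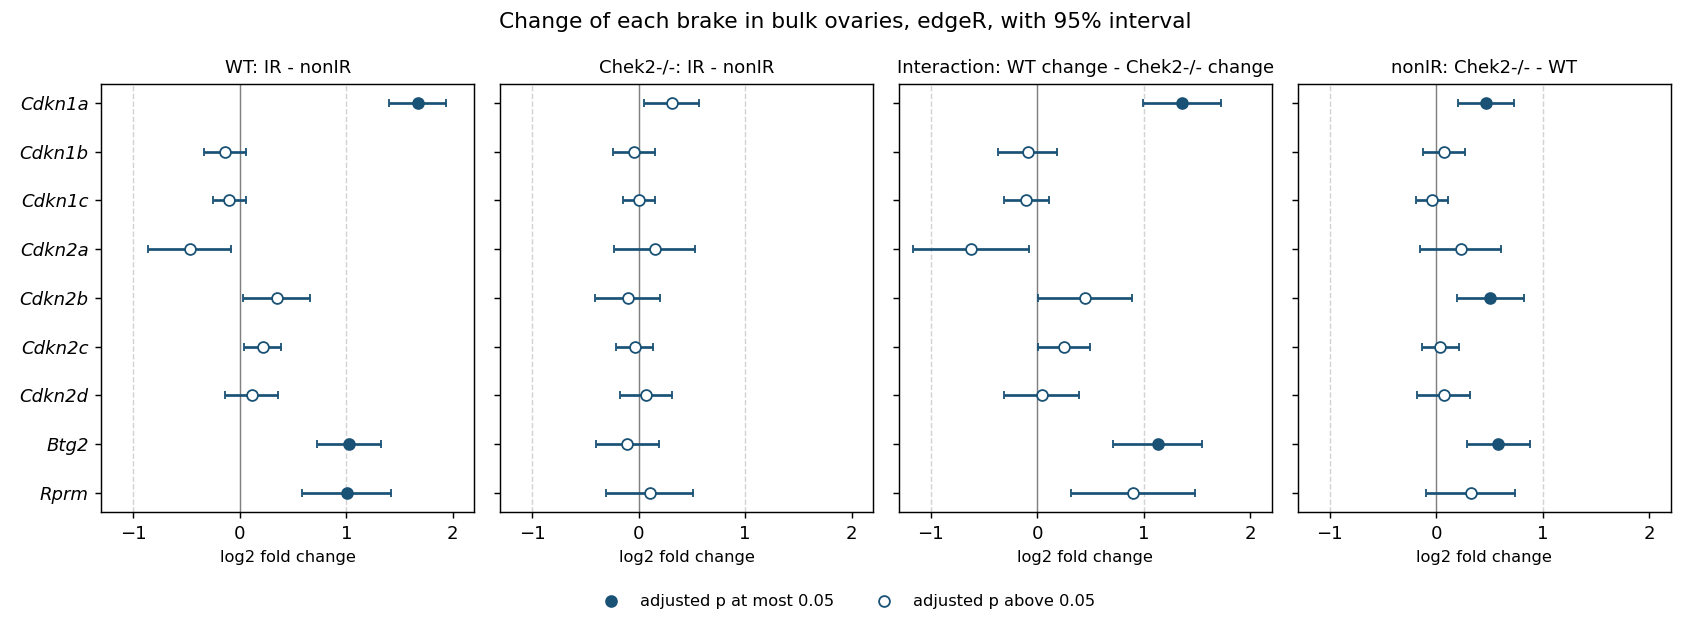
Log2 fold change of each of the 9 genes in bulk ovaries with its 95% interval (6 libraries per group), in 4 panels for irradiation in the wild type, irradiation in *Chek2*-/-, the difference between these changes and the genotypes without irradiation, with filled points for an edgeR adjusted p of at most 0.05. *Cdkn1a* stands at 1.67 in the wild type and 0.31 in *Chek2*-/-, *Btg2* and *Rprm* near 1 in the wild type, and the wild-type intervals of the other genes lie between −1 and 1.

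Without irradiation the genotypes were not level. *Cdkn1a* was higher in *Chek2*-/- than in wild-type ovaries by 0.47 (SE 0.13, 0.21 to 0.73, edgeR adjusted p = 0.0308), *Btg2* by 0.59 (SE 0.14, edgeR adjusted p = 0.0190) and *Cdkn2b* by 0.51 (SE 0.15, edgeR adjusted p = 0.0462). When each library was left out in turn, *Cdkn1a* lost its call in 8 of 12 fits, *Cdkn2b* in 11 and *Btg2* in 1. None of the 9 reached 2-fold, where 0.788% of all genes did with an adjusted p of at most 0.05, and 3.12% of all genes were higher with such a p when no fold limit was set. The *Cdkn1a* difference was 0.71 (edgeR adjusted p = 0.000109) in replicates 1 to 4 and 0.08 (edgeR adjusted p = 0.912) in replicates 5 and 6. Among the non-irradiated wild-type libraries, replicates 5 and 6 held the 2 highest *Cdkn1a* values. Genotype and strain background cannot be told apart in this comparison. Cell type markers moved in it too, in both directions (edgeR adjusted p at most 0.05). In *Chek2*-/- ovaries 3 of 10 fibroblast and 2 of 8 pericyte markers were lower. Higher there were 1 of 10 granulosa, 1 of 7 steroidogenic and 1 of 8 oviduct and uterine epithelium markers. The share of all genes that were lower is not given here. Summed oocyte markers, of which 0 of 10 passed, were at 3495 to 4329 CPM in non-irradiated wild-type and 1968 to 3743 CPM in non-irradiated *Chek2*-/- ovaries. The part of these markers in the differences was not tested. Immediate early genes, which respond within minutes to handling and other stimuli, were also higher in non-irradiated *Chek2*-/- ovaries in 8 of 13 cases (edgeR adjusted p at most 0.05, median 0.78), and their part in the *Btg2* difference was not tested.

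Divided by the length of the annotated exons, the order of the genes in non-irradiated wild-type ovaries was *Cdkn1b* at 27.8 CPM per kb, *Cdkn1c* at 14.2, *Btg2* at 11.1, *Cdkn1a* at 7.78, *Cdkn2d* at 6.62, *Cdkn2c* at 5.96, *Cdkn2a* at 3.03, *Cdkn2b* at 1.501 and *Rprm* at 0.539 CPM per kb. After irradiation *Cdkn1a* stood at 24.7 and *Btg2* at 22.6 CPM per kb, beside 25.3 for *Cdkn1b*. On this scale of level per length *Cdkn1a* thus moved from the fourth place to the second, next to *Cdkn1b*, and the gap between these neighbours after irradiation was within the spread of the libraries.

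Around these genes, the lists of the same pathway were read in the same fit. Of 17 other genes linked to arrest after damage, 8 rose in irradiated wild-type ovaries (edgeR adjusted p at most 0.05, where 1.53% of all genes rose) with a list median of 0.41, against −0.00409 over all genes. They were led by *Ccng1*, which encodes cyclin G1, at 2.03 (SE 0.05, edgeR adjusted p = 2.61e-19), with *Phlda3* at 1.21, *Zmat3* at 0.99 and the stress gene *Sesn2* at 1.43. In *Chek2*-/- ovaries 1 of the 17 rose, *Ccng1* at 0.56 (edgeR adjusted p = 6.82e-07), where 0.0112% of all genes rose, and for 7 of the 17 the change was larger in the wild type (interaction with an edgeR adjusted p at most 0.05, where 0.694% of all genes had such a larger change). Among 15 upstream regulators 3 rose in the wild type, the p53 antagonist *Mdm2* at 1.33 (edgeR adjusted p = 1.19e-14), the p53 relative *Trp73* at 2.80 (edgeR adjusted p = 8.39e-08) and *Runx3* at 1.69 (edgeR adjusted p = 0.0212), the last with a wide spread of 1.94 ± 1.52 CPM (SD, n = 6).

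The machinery that the brakes act on is read against the 2.41% of all genes that passed the test in irradiated wild-type ovaries (1.53% higher), beside which a count of 0 or 1 in lists of 7 to 15 genes is near the background. None of 13 cyclins and CDKs passed the edgeR test in irradiated wild-type ovaries (list median 0.07), the nearest being cyclin E1 (*Ccne1*) at 0.28 (edgeR adjusted p = 0.095) and cyclin A2 (*Ccna2*) at 0.10 (edgeR adjusted p = 0.656). None of 15 G2 and mitosis genes passed it (median 0.01), with the CDK1-inhibiting kinase *Pkmyt1* at −0.22 (edgeR adjusted p = 0.177) and *Cdc20*, an activator of anaphase, at 0.13 (edgeR adjusted p = 0.652). Of 14 pocket proteins and E2F factors 1 rose, the retinoblastoma gene *Rb1* at 0.43 (edgeR adjusted p = 0.00316). The list of BTG and TOB relatives of *Btg2* also held *Cnot7* and *Cnot8*, which belong to the deadenylase complex and not to that family. Of the 7 tested genes of this list 1 rose, *Tob1* at 0.45 (edgeR adjusted p = 5.68e-06). The *Tob1* change differed between the genotypes by 0.39 (edgeR adjusted p = 0.0068). None of 13 immediate early genes passed the test in irradiated wild-type ovaries (median 0.24, *Egr2* at 0.47 with edgeR adjusted p = 0.294, *Egr1* at 0.49 with 0.369).

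Over the 24 bulk libraries the genes whose log2 CPM followed *Cdkn1a* most closely, among 15956 with a mean of at least 1 CPM, were *Zmat3* (Pearson r = 0.934), *Trp53inp1* (0.926), *Ccng1* (0.922), *Bbc3* (0.914) and *Espnl* (0.907). The libraries fall into 4 groups, and with group means removed the same 5 had r of 0.62, 0.31, 0.53, 0.46 and 0.46. Among the 9 genes, *Btg2* and *Rprm* each had r = 0.846 with *Cdkn1a*. These values describe the likeness of patterns in these libraries, which share the irradiated wild-type group as their high end.

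In the single-cell libraries the cells fell into 17 clusters, and 10 classes of at least 50 cells were named from marker genes, as oocyte-, granulosa-, dividing granulosa-, fibroblast-, dividing fibroblast-, epithelial-, endothelial-, pericyte-, perivascular smooth muscle- and macrophage-like. The 9 genes and the pathway lists were kept out of the genes used for clustering. Values are UMIs of the gene per 1000000 UMIs of the class in a library (UPM), and the 95% intervals of ratios are exact and cover counting error only. With 1 library per condition no test between conditions was possible. Most granulosa-like cells of the irradiated wild-type library (1580 of 3002) were in cluster 2, led by *Gm2044* and *Calb1*, and most of those of the irradiated *Chek2*-/- library (1641 of 2724) in cluster 1, led by *Amh*. In the non-irradiated libraries clusters 1 and 2 held 1171 and 996 of 2465 wild-type cells and 1264 and 1226 of 2682 *Chek2*-/- cells. Most fibroblast-like cells were in cluster 8, led by *Dlk1*, except in the irradiated *Chek2*-/- library, where cluster 7, led by *Mfap4*, held 1779 against 1406 in cluster 8.

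*Cdkn1a* was higher in irradiated than in non-irradiated wild-type cells in all 10 classes. Over all cells it was at 11.6 UPM without and 91.8 with irradiation, a ratio of 7.89 (7.54 to 8.25), beside a bulk fold of 3.18. The *Chek2*-/- libraries stood at 7.49 and 12.9 UPM, with a ratio of 1.72 (1.61 to 1.85). Over all cells a ratio of at least 2 was reached by 1.71% of genes in the wild type and 1.11% in *Chek2*-/-, counting genes whose UMIs in the libraries compared came to 100 or more, a limit kept for the shares that follow.

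The largest wild-type ratios of *Cdkn1a* were in the stroma and the granulosa. In fibroblast-like cells it went from 4.75 to 96.7 UPM, a ratio of 20.3 (17.76 to 23.4), where 0.51% of genes in that class reached 2. In dividing fibroblast-like cells the values were 4.96 and 72.7 (ratio 14.6, 11.99 to 18.1), where 0.328% reached 2. Granulosa-like cells went from 5.34 to 80.8 (15.1, 13.4 to 17.1) and dividing granulosa-like cells from 3.16 to 48.8 (15.4, 11.8 to 20.6), where 1.33% and 0.308% of genes reached 2. The pooled classes hold unlike clusters. Within the granulosa-like class the ratio was 34.3 (26.1 to 45.8) in cluster 1, 24.8 (19.6 to 31.9) in cluster 2 and 4.22 (3.57 to 5.03) in cluster 5, led by *Akr1c18*, so the dividing cells lay below cluster 1, with which they share *Amh* as leading gene, and above cluster 5. Within the fibroblast-like class it was 26.9 (21.7 to 33.8) in cluster 7 and 16.2 (13.6 to 19.4) in cluster 8, the latter overlapping the interval of the dividing cells.

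The remaining classes had more *Cdkn1a* before irradiation than the stroma and granulosa classes above, and smaller ratios. The level before irradiation is the denominator of the ratio, and among these classes the ratios did not follow its order. Oocyte-like cells stood at 38.8 UPM without and 185 with irradiation, a ratio of 4.78 (4.45 to 5.14), where 5.9% of genes reached 2. Macrophage-like cells had the highest level in every library, at 142 and 346 in the wild type (2.44, 1.80 to 3.36) and 99.2 and 232 in *Chek2*-/- (2.34, 1.59 to 3.48), from 23 to 54 cells per library. The irradiated wild-type level was 96.1 UPM in epithelial-like (ratio 3.85), 95.5 in endothelial-like (5.63), 54.9 in pericyte-like (5.19, 2.94 to 9.76) and 136 in perivascular smooth muscle-like cells (12.5, 9.27 to 17.3). In these classes 2.1%, 0.331%, 0.237% and 0.302% of genes reached 2, as did 2.02% in macrophage-like cells.

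In *Chek2*-/- cells *Cdkn1a* was also higher with irradiation in most classes, by less. Ratios ran from 1.18 in oocyte-like cells (1.06 to 1.31) to 2.59 in dividing fibroblast-like cells (2.03 to 3.33), 8 of 10 intervals lay above 1, and 4 classes reached 2, namely granulosa-, dividing fibroblast-, epithelial- and macrophage-like cells, where 0.187%, 0.343%, 0.229% and 1.59% of genes did. The exceptions were pericyte-like (1.20, 0.751 to 1.93) and perivascular smooth muscle-like cells (1.38, 0.904 to 2.14). Granulosa-like cells had 2.30 (1.86 to 2.85) and fibroblast-like cells 1.60 (1.33 to 1.91). In 9 of the 10 classes the wild-type interval lay wholly above the *Chek2*-/- interval, the exception being macrophage-like cells, where they overlapped. These intervals leave out the spread between libraries, so with 1 library per condition the genotypes could not be tested against each other. The share of all genes with intervals apart in this way was not counted. Within clusters the *Chek2*-/- ratio was 1.72, 2.63 and 3.54 in granulosa-like clusters 1, 2 and 5, and 2.47 and 1.39 in fibroblast-like clusters 7 and 8. In cluster 5 the intervals of the genotypes overlapped (3.57 to 5.03 and 2.23 to 5.86), but with every cell given the same weight the ratios there were 6.52 in the wild type and 3.43 in *Chek2*-/-.

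**Figure D3:**
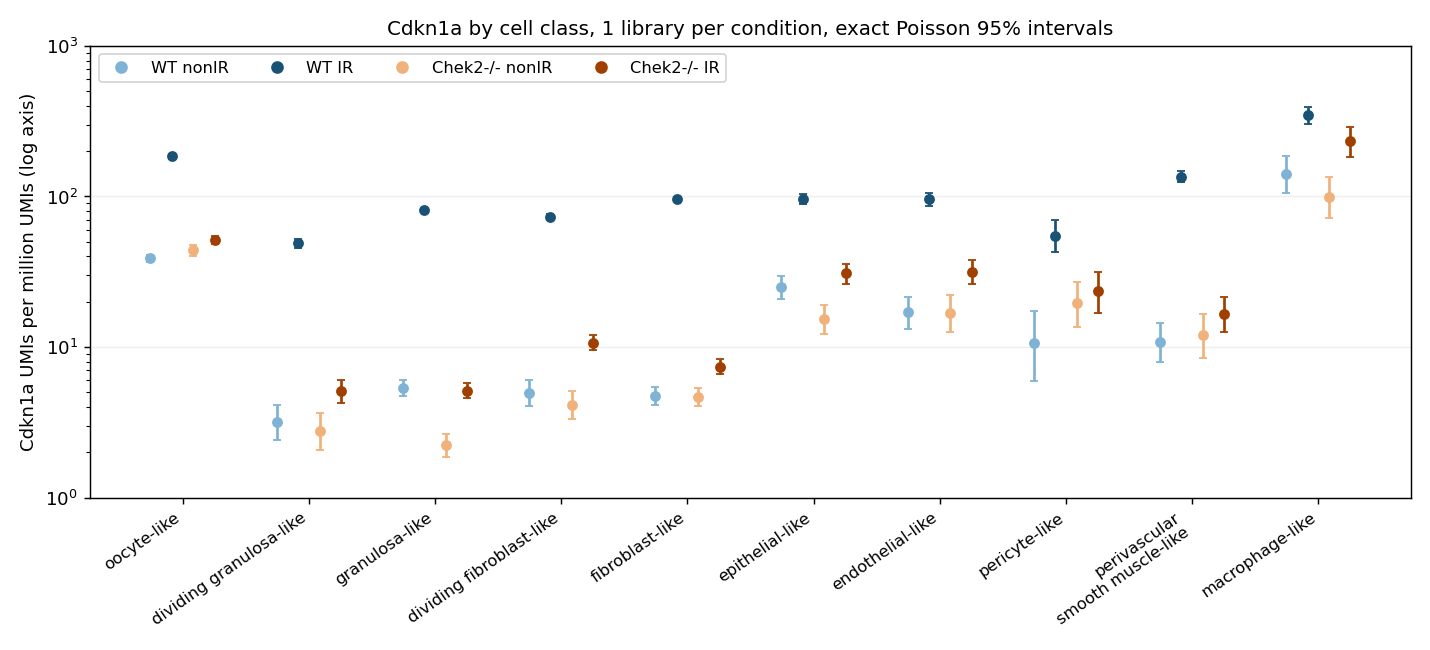
*Cdkn1a* level (UPM) of each cell class in the 4 single-cell libraries, on a log axis, with exact 95% intervals for counting error. The irradiated wild-type library is highest in every class, from 48.8 UPM in dividing granulosa-like to 346 in macrophage-like cells. The irradiated *Chek2*-/- library lies above the non-irradiated *Chek2*-/- one in every class, by a smaller ratio than in the wild type. In pericyte-like and perivascular smooth muscle-like cells that *Chek2*-/- rise is within counting error.

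The plot of *Cdkn1a* by class shows the level per class, and the class sizes decide what each contributes. Of the difference in *Cdkn1a* UPM between the wild-type libraries, granulosa-like cells held 32.8%, fibroblast-like cells 27.8%, dividing fibroblast-like cells 11.2%, oocyte-like cells 9.86%, dividing granulosa-like cells 5.40% and epithelial-like cells 4.64%. Oocyte-like cells were 2.11% of cells, 15.6% of UMIs and 51.8% of *Cdkn1a* UMIs in the non-irradiated wild-type library. In the irradiated one they were 1.75% of cells, 7.52% of UMIs and 15.2% of *Cdkn1a* UMIs. Their share of *Cdkn1a* UMIs was 41.5% and 37.2% in the *Chek2*-/- libraries. Without the oocyte-like class, a split chosen after the data were seen, the wild-type ratio over all cells was 12.7 (11.9 to 13.5). Over all cells the non-irradiated *Chek2*-/- library was lower in *Cdkn1a* than the wild-type one (ratio 0.644, 0.600 to 0.690), the opposite direction to the bulk difference. In oocyte-like cells it was higher (1.13, 1.02 to 1.26), and these were 0.862% of its cells against 2.11%. Without the oocyte-like class the ratio over all cells was 0.710 (0.645 to 0.781). In granulosa-like clusters 1, 2 and 5 it was 0.897 (0.599 to 1.34), 0.654 (0.448 to 0.949) and 0.232 (0.143 to 0.360). Dividing granulosa-like cells had 0.880 (0.590 to 1.31). The part of the cell mix in the ratio over all cells was not tested.

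In the single-cell libraries *Btg2* was far more abundant than *Cdkn1a* and moved less, whereas in wild-type bulk ovaries *Btg2* stood at 11.1 against 7.78 CPM per kb without and 22.6 against 24.7 with irradiation. In wild-type cells its ratios ran from 1.08 in pericyte-like (1.03 to 1.13) to 1.92 in epithelial-like cells (1.80 to 2.04), with none at 2 or more. All 10 intervals lay above 1. *Btg2* had many UMIs, 163773 in fibroblast-like cells over the 4 libraries, so its intervals for counting error leave out 1 even at small shifts. The share of all genes with such an interval was not counted. Granulosa-like cells had 1.72, fibroblast-like cells 1.46, oocyte-like cells 1.76 and all cells 1.55, beside a bulk fold of 2.03. Within granulosa-like clusters 1, 2 and 5 the wild-type ratio was 1.35, 1.51 and 1.31, each below the pooled 1.72. Between the wild-type libraries cluster 2 went from 996 to 1580 cells. Ratios of *Btg2* in *Chek2*-/- cells ran from 0.753 to 1.96, 6 intervals lay above 1 and 2 below it, in granulosa-like (0.902) and endothelial-like cells (0.815), with 1.09 over all cells. The granulosa-like value does not hold within clusters, where the *Chek2*-/- ratio was 1.14 in cluster 1, 1.07 in cluster 2 and 1.66 in cluster 5. Between these libraries cluster 1 went from 1264 to 1641 cells and cluster 2, which held more *Btg2*, from 1226 to 900. Fibroblast-like cells pooled over clusters had ratios of 1.46 in the wild type and 1.45 in *Chek2*-/-, but the genotypes differed within clusters and in opposite directions. The ratio was 1.23 in the wild type and 1.84 in *Chek2*-/- cells of cluster 7, and 1.80 and 1.24 in cluster 8.

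The baseline of *Btg2* differed between the genotypes by class. The non-irradiated *Chek2*-/- library stood at 0.356 of the wild-type one in dividing fibroblast-like cells and 0.510 in fibroblast-like cells, but at 1.14 in granulosa-like cells, and at 0.749 over all cells, where the bulk difference had the opposite sign. Clusters of a class were unlike, at 0.304 in cluster 7 and 0.899 in cluster 8 of the fibroblast-like cells, and at 0.963, 1.26 and 0.721 in clusters 1, 2 and 5 of the granulosa-like cells. Immediate early genes summed to 10769 and 10017 UPM in wild-type and 6692 and 6856 in *Chek2*-/- fibroblast-like cells (without and with irradiation), and to 5216, 5580, 5403 and 4764 in granulosa-like cells. In fibroblast-like cells they were thus lower with *Btg2* in the *Chek2*-/- libraries, and their part in the *Btg2* differences between genotypes or with irradiation was not tested.

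*Rprm* was rare, with 120 UMIs in all non-irradiated and 727 in all irradiated wild-type cells, a ratio of 6.33 (5.21 to 7.74), and 61 and 90 UMIs in *Chek2*-/- cells (1.29, 0.919 to 1.81). Most of the added UMIs were in the stroma and the granulosa. Fibroblast-like cells had 4 and 246 UMIs in the wild type (ratio 66.0, 25.5 to 244), dividing fibroblast-like cells 3 and 78 (22.8, 7.53 to 113) and granulosa-like cells 33 and 269 (7.29, 5.06 to 10.8). The *Chek2*-/- fibroblast-like cells had 8 UMIs on each side. Perivascular smooth muscle-like cells had 2 and 21 UMIs in the wild type (ratio 11.9), and oocyte-like cells held at most 6 UMIs in any library. In the non-irradiated wild-type library 61 of the 120 UMIs lay in the clusters left unnamed.

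The levels of the brakes set the classes apart, given here as means of the 4 libraries, irradiated ones included. *Cdkn1b* was highest in granulosa-like (201 UPM) and epithelial-like cells (166), with 102 in dividing granulosa-like and 31.1 in endothelial-like cells, its lowest class. *Cdkn1c* was highest in epithelial-like (157), fibroblast-like (150.3) and oocyte-like cells (115) and stood at 16.5 in granulosa-like cells. The p27 gene was thus the more abundant of the pair in granulosa-like and the p57 gene in fibroblast-like cells, and both were high in epithelial-like cells. In the non-irradiated libraries alone *Cdkn1c* was highest in fibroblast-like (157) and then epithelial-like cells (152). *Btg2* was highest in pericyte-like (2125), endothelial-like (1013), fibroblast-like (929) and perivascular smooth muscle-like cells (916) and stood at 169 in oocyte-like and 164 in dividing granulosa-like cells. In the non-irradiated libraries alone perivascular smooth muscle-like cells (817) came before fibroblast-like cells (757). Summed immediate early genes in the non-irradiated wild-type library were also highest in pericyte-like (12222 UPM), perivascular smooth muscle-like (11853) and fibroblast-like cells (10769). Endothelial-like cells (6294) were below dividing fibroblast-like cells (8304) in them. The part of handling and dissociation in the *Btg2* order was not tested.

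*Cdkn2c* and *Cdkn2d* were highest in dividing fibroblast-like cells, followed by pericyte-like cells at 58.7 and 63.5 UPM. *Cdkn2c* was at 146 UPM in the former and 40.0 in dividing granulosa-like cells, against 2.23 in granulosa-like cells. Dividing cells exceeded their non-dividing class 14.3 to 20.8 times in granulosa and 8.66 to 12.8 times in fibroblasts over the 4 libraries. *Cdkn2d* was at 77.9 in dividing fibroblast-like and 51.0 in dividing granulosa-like cells, 6.20 to 6.80 and 3.54 to 4.21 times the non-dividing classes. *Cdkn1b* and *Btg2* in dividing granulosa-like cells were at 0.455 to 0.556 and 0.239 to 0.357 of the pooled non-dividing class, whose clusters were unlike. In the non-irradiated wild-type library *Btg2* was at 165 UPM in the dividing cluster, which *Amh* leads as it does cluster 1, beside 166, 788 and 699 UPM in clusters 1, 2 and 5. *Cdkn1b* was at 116 UPM in the dividing cluster, beside 139, 364 and 239 UPM in the same clusters. *Cdkn1c* in dividing fibroblast-like cells was at 110 UPM in that library, between 101 in cluster 7 and 224 in cluster 8.

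**Figure D4:**
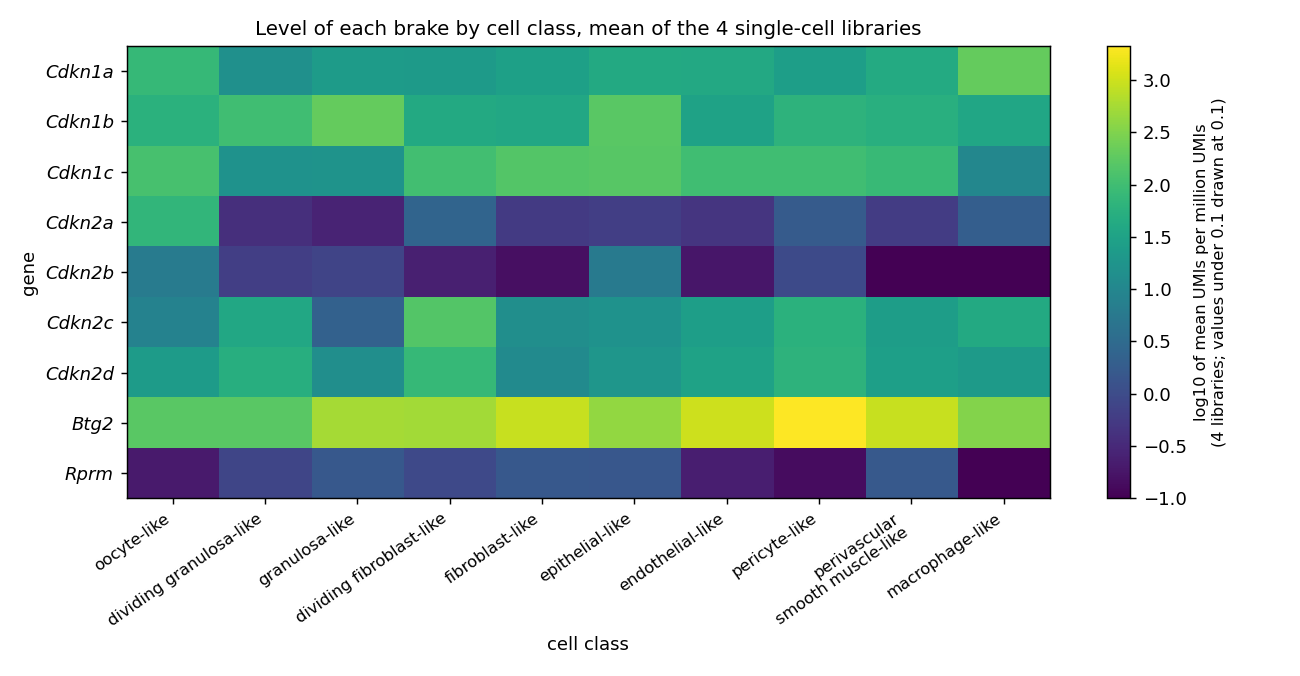
Level of each of the 9 genes by cell class, as the mean UPM of the 4 single-cell libraries on a log colour scale, with a row per gene to be read along its length. *Cdkn1b* is strongest in granulosa-like cells (mean of 201 UPM), *Cdkn2c* and *Cdkn2d* in dividing fibroblast-like cells (146 and 77.9), *Cdkn2a* in oocyte-like cells, and *Rprm* is low throughout.

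*Cdkn2a*, in the map of genes by class, was carried by the oocytes. Oocyte-like cells held 93.7% and 88.7% of its UMIs in the wild-type and 90.1% and 90.8% in the *Chek2*-/- libraries (without and with irradiation). Its level in them was 65.7 and 65.8 UPM in the wild type (ratio 1.00, 0.924 to 1.09) and 74.5 and 73.2 in *Chek2*-/-. Over all cells the wild-type ratio was 0.511 (0.473 to 0.552), and without oocyte-like cells it was 0.834 (0.642 to 1.08). The level within oocyte-like cells thus stayed while their share of all UMIs went from 15.6% to 7.52%. Their share also differed between libraries without irradiation, at 2.11% of cells in the wild-type and 0.862% in the *Chek2*-/- library, with 1.60% in the irradiated *Chek2*-/- library. With 1 library per condition, the part of irradiation in these shares was not tested.

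*Cdkn2b* was low in every class, with a highest class mean over the 4 libraries of 6.23 UPM in oocyte-like and 5.75 in epithelial-like cells, an order that was the reverse in the non-irradiated libraries alone (3.26 and 3.88). In the wild type it had 124 UMIs without and 419 with irradiation over all cells (ratio 3.53, 2.88 to 4.35). Oocyte-like cells had 74 and 206 UMIs (6.02, 4.59 to 7.96), granulosa-like cells 19 and 103 (4.85, 2.95 to 8.37) and epithelial-like cells 10 and 85 (5.23, 2.71 to 11.3). Of the granulosa-like UMIs cluster 2 held 8 and 80 (6.58, 3.18 to 15.8). In clusters 1 and 5 the ratios were 2.08 (0.529 to 9.69) and 2.25 (0.874 to 6.46). In *Chek2*-/- cells the ratio over all cells was 0.853 (0.672 to 1.08). The bulk wild-type change of 0.35 has a 95% interval that ends at 0.66 on the log2 scale, below the single-cell ratio.

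The oocyte-like class was 1 cluster, in which stages of oocyte growth were not separated. The paper found a subcluster of oocytes that came from the irradiated wild type alone. In the class as a whole several brakes differed between the wild-type libraries, and the part of the mix of oocytes in this was not tested. *Cdkn1b* was at 94.2 UPM without and 33.6 with irradiation, a ratio of 0.357 (0.322 to 0.395), where 4.63% of genes in that class had a ratio of 0.5 or less. The *Chek2*-/- oocyte-like cells stood at 51.8 and 54.4 (1.05, 0.948 to 1.16). *Cdkn2c* was at 4.25 and 20.6 in the wild type (4.85, 3.91 to 6.05) and at 3.79 and 4.14 in *Chek2*-/- (1.09, 0.744 to 1.62). *Cdkn1a*, *Cdkn2b* and *Cdkn2c* were thus higher and *Cdkn1b* lower in the irradiated wild-type library. *Cdkn1c* (114, 125, 111 and 112 UPM) and *Cdkn2d* (21.6, 26.0, 23.3 and 23.7) kept close to their level in all 4 libraries.

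The oocyte-like cells of the irradiated wild-type library were shallow, with a median of 14183 UMIs against 181496, 159206 and 120516 in the non-irradiated wild-type, non-irradiated *Chek2*-/- and irradiated *Chek2*-/- libraries. In a split chosen after the data were seen, the cells with at least 50000 UMIs numbered 131, 51, 62 and 91 (wild-type without and with irradiation, then *Chek2*-/-). Among them the wild-type ratios were 4.62 for *Cdkn1a*, 0.305 for *Cdkn1b*, 6.52 for *Cdkn2b* and 4.94 for *Cdkn2c*. With every cell of the class given the same weight, *Cdkn1b* had a ratio of 0.659, *Cdkn2b* 3.19 and *Cdkn2c* 5.66. The direction was the same for *Cdkn1b*, *Cdkn2b* and *Cdkn2c* in each reading, and the size of the *Cdkn1b* and *Cdkn2b* ratios was not. The non-irradiated libraries already differed in *Cdkn1b*, with *Chek2*-/- at 0.545 of the wild-type level among deep oocyte-like cells.

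**Figure D5:**
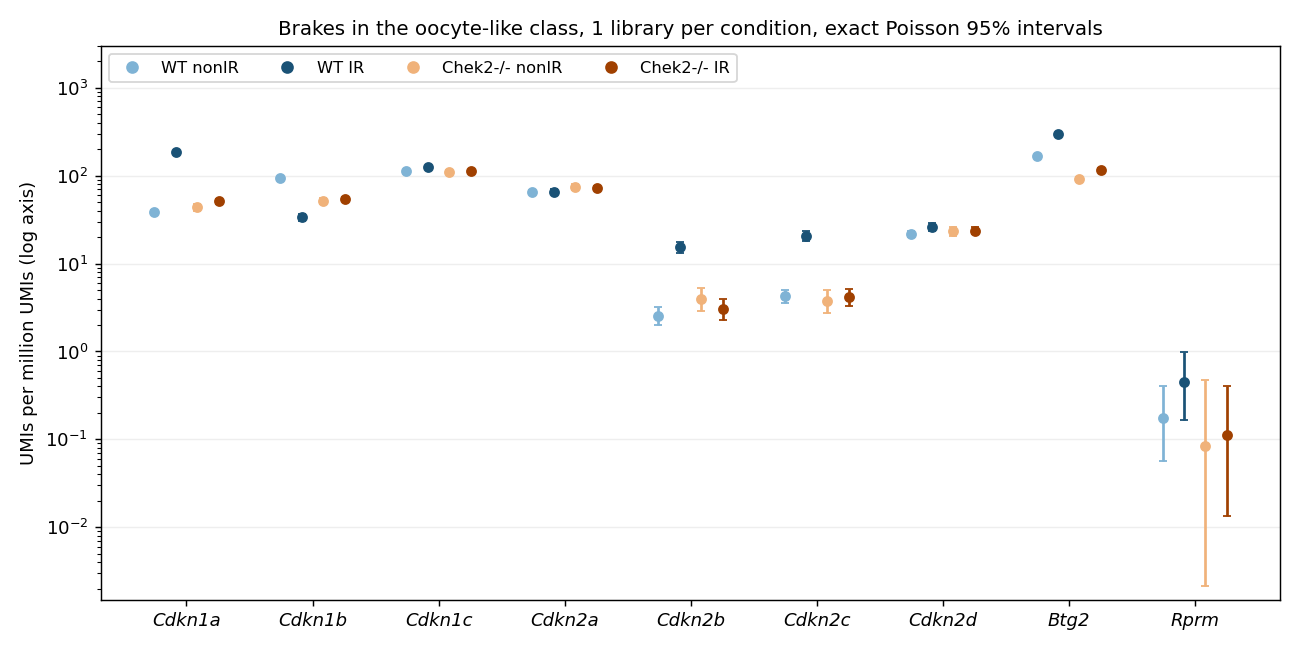
Level of the 9 genes in oocyte-like cells of the 4 single-cell libraries, in UPM on a log axis, with exact 95% intervals for counting error. In the irradiated wild-type library *Cdkn1a* (185), *Btg2* (297), *Cdkn2b* (15.4) and *Cdkn2c* (20.6) are the highest of the 4 and *Cdkn1b* (33.6) the lowest, while *Cdkn2a*, *Cdkn1c* and *Cdkn2d* lie close together.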

How the data were processed

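RNA from paired ovaries was sequenced in 24 bulk libraries, and the authors quantified them with Salmon 1.3.0 within nf-core/rnaseq and deposited estimated counts per gene that are not scaled between libraries (Trim Galore 0.6.5 is named in the submitters' processing notes). The 4 single-cell matrices hold UMI counts by barcode, which the authors made with Cell Ranger and the mm10 reference, after its calling of cell barcodes and before the study's limits on cells below.

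Groups were taken from the sample titles. Values were rounded to whole numbers, a gene had to total at least 10, and 26790 genes were fitted in 1 model with TMM and the quasi-likelihood test of edgeR 4.0.16 (R 4.3.3), with Benjamini-Hochberg adjustment over all of them and the threshold at an adjusted p of 0.05 and 2-fold. The standard errors come from the spread between libraries. Replicates differed by more than counting error (chi-square over its degrees of freedom 5.85 to 55.3). The fit was tested on simulated data. Alternatives were limma-voom (limma 3.58.1) and DESeq2 1.42.0, with other filters and scalings, each library left out, a block for the replicate number and, chosen after seeing the data, replicates 5 and 6 apart from 1 to 4.

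The study's limits on cells were kept, at least 1000 genes, at most 20% of UMIs from mitochondrial and at most 50% from ribosomal genes, and a gene had to be seen in 3 cells. Doublets called by Scrublet per library were removed (4.02% to 5.47%), and Leiden clusters (resolution 0.5, 15 neighbours) were drawn from 2000 variable genes reduced to 30 components in scanpy 1.11.5 (Python 3.11.15), without the authors' Harmony step and their doublet callers. Clusters were named where 60% of a marker list, and at least 3 markers, were found in 25% of cells and at 2-fold over the median of all clusters. A cluster that met both the granulosa and the fibroblast list was left unnamed, so an unnamed cluster can match more than 1 list. Among the clusters 3 stayed unnamed, and 43 Schwann-like cells were left out as too few. Sums per class carry exact Poisson limits and ratios exact conditional limits at 95%.

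Positions are from GENCODE vM21 (GRCm38). The processing notes name mm10 for the bulk libraries and the methods an Ensembl release. The 9 genes and the lists were chosen with earlier results of these data known. Also named were, per list, at most 4 genes with the smallest p among those past the adjusted threshold in the wild type, otherwise the 2 with the smallest p, the 5 genes closest to *Cdkn1a*, and *Chek2*.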

Additional observations from a re-analysis of the deposited data

Results flagged for a closer look

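*Cdkn1c* in irradiated wild-type replicate 4 was at 33.61 CPM, apart from the other 5 libraries, of which the highest was at 26.99 CPM. *Cdkn2d* in non-irradiated wild-type replicate 1 was at 13.42 CPM, with the next at 10.68 CPM, and in irradiated *Chek2*-/- replicate 2 it was at 15.81 CPM, with the next at 11.9 CPM. These are 3 of 36 groups of 6 libraries examined with Dixon's criterion (critical value 0.625), where chance alone marks about 1 in 20 groups. The response to irradiation differed between the genotypes for *Cdkn1a* by 1.358 (edgeR adjusted p = 5.36e-05) and for *Btg2* by 1.13 (edgeR adjusted p = 0.00224) on the log2 scale, wild type minus *Chek2*-/-.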

How the results depend on the processing

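The wild-type rise of *Cdkn1a* and its difference between the genotypes kept direction and threshold in the alternatives run, except with replicates 5 and 6 only (chosen after seeing the data), where the rise was 1.48 (edgeR adjusted p = 0.107), the difference 1.11 (0.896) and the members past the threshold 0 and 0. The higher baseline of *Cdkn1a* in *Chek2*-/- ovaries was 0.0754 (adjusted p = 0.912) there and 0.459 (0.0679) with only the groups compared. With each library left out it lay between 0.416 and 0.567 (adjusted p 0.00944 to 0.0845), and it kept an adjusted p of at most 0.05 in 4 of 12 such fits, losing it without wild-type replicate 1, 2, 3 or 4 or *Chek2*-/- replicate 1, 2, 4 or 6. Without a fold limit 3 genes were past the threshold at baseline. Leaving out single libraries, the wild-type count was 1 to 3, below 3 in 8 of 12 fits, and it was 1 without non-irradiated replicate 3 or 4, where *Btg2* and *Rprm* fell below 2-fold while their adjusted p stayed past the threshold. The *Cdkn2b* baseline kept its call in 1 of 12 such fits, without *Chek2*-/- replicate 2 (adjusted p 0.0387 to 0.104), and lost it in 5 of the 10 other alternatives, namely limma-voom (0.0504), only the groups compared (0.0505), no count filter (0.0617), replicates 1 to 4 (0.167) and replicates 5 and 6 (0.490). The *Btg2* baseline kept it in 11 of 12 (0.0559 without wild-type replicate 4) and lost it with replicates 5 and 6 only (0.490). Over all genes the baseline count of 211 was 127 in DESeq2, 102 with only the groups compared, 96 to 129 without wild-type replicate 2, 3 or 4 or *Chek2*-/- replicate 6, and 390 in replicates 1 to 4. With replicates 5 and 6 only it was 18, and the wild-type and interaction counts were 33 (from 288) and 3 (from 167). The single *Chek2*-/- gene became 9 in DESeq2 and was lost with only the groups compared and without *Chek2*-/- non-irradiated replicate 3 or irradiated replicate 4. The replicate block gave the same counts, 3, 0, 2 and 0, but the numbers were not taken to pair the samples, since in no pair of groups were all 6 same-numbered correlations over 0.1 (36 in all, r from −0.2475 to 0.792). They were over 0.1 in 5 of 6 between the *Chek2*-/- groups, where 4 of 6 libraries correlated best with their own number, and in 4 of 6 between the wild-type groups. *Cdkn1a* in *Chek2*-/- ovaries was higher with irradiation in 6 of 6 same-numbered libraries, with a change of 0.304 under the block (edgeR adjusted p = 1.0).

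In single cells, *Cdkn1a* over all cells had a ratio of 12.7 without the oocyte-like class. Ratios crossed 1 for *Cdkn1c* in *Chek2*-/- epithelial-like cells (0.965 with equal weight per cell), *Cdkn2c* in wild-type perivascular smooth muscle-like cells (0.987 with no doublets removed, 0.951 with at least 2000 genes per cell) and *Btg2* in *Chek2*-/- granulosa-like cells (1.21 with no doublets removed, where a granulosa cluster went unnamed). Other causes were not tested. The fit with only the groups compared was not run for the interaction. Depth limits *Rprm*, *Cdkn2b* and, outside oocyte-like cells, *Cdkn2a*, with few UMIs in most classes.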
